A study of Rattus norvegicus with 25 samples.

Results

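The immediate early response genes described here were 10 genes chosen by Ensembl ID from the 32883 IDs of the count table: Fos (ENSRNOG00000008015), Jun (ENSRNOG00000026293), Junb (ENSRNOG00000042838), Atf3 (ENSRNOG00000003745), Egr1 (ENSRNOG00000019422), Nr4a1 (ENSRNOG00000007607), Dusp1 (ENSRNOG00000003977), Zfp36 (ENSRNOG00000058388), Btg2 (ENSRNOG00000003300) and Ier3 (ENSRNOG00000000827). The choice was made by name with the counts of all 7 groups and earlier results on them known, so the values and adjusted p-values below describe these genes and are no independent test of the set. All 10 passed the filter on low counts in both cohorts, among 16146 IDs tested in the first cohort and 14495 in the other. Symbols come with the list of IDs, because the reference gene table paired 0 of the 32883 IDs with a name. For the same reason neither further early response genes nor markers of gut regions and cell types could be looked up, and the labelled tissues were not checked against markers.

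The study compared rat intestine after Roux-en-Y gastric bypass (RYGB) with intestine after a sham operation. In RYGB the small bowel is rejoined so that food from a small stomach pouch enters the alimentary limb, which meets bile and pancreatic juice only where the common limb begins. The first cohort, of unstated strain, had 3 libraries each of RYGB alimentary limb (RYGB_AL), sham jejunum (Sham_JEJU), RYGB common limb (RYGB_CL) and sham ileum (Sham_IL). The OLE cohort came from Otsuka Long-Evans Tokushima Fatty (OLETF) rats, which develop obesity and diabetes spontaneously. It had 5 libraries of intestinal sections named glucotonic (Glucotonic_OLE) and 5 of sections named non-glucotonic (Nonglucotonic_OLE), all from RYGB rats, and 3 of distal intestine from sham-operated rats (Sham_OLE). How a section was judged glucotonic, the age of the rats and the time since surgery are not stated in the labels. OLE libraries carry a number: 13, 16, 18 and 19 each occur in both kinds of section, and number 13 has 2 libraries of each. Libraries of number 13 were summed within a group, leaving 4 glucotonic, 4 non-glucotonic and 3 sham samples.

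Immediate early genes are transcribed within minutes of a stimulus by factors already present in the cell, so they need no new protein. Growth factors, cytokines and stress act through MAP kinases on serum response factor, which binds the CArG box, and through CREB, which binds the cAMP response element (CRE). Fos, Jun and Junb are subunits of the AP-1 transcription factor, Atf3 is a stress-induced relative of them, and Egr1 and Nr4a1 are transcription factors of the zinc finger and nuclear receptor families. Dusp1, Zfp36, Btg2 and Ier3 are induced with them and act in feedback, survival and growth control. The table is from whole tissue, where more cells of a type and more RNA per cell cannot be told apart.

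Promoters are shown because the levels of the 10 genes correlated within groups and because these elements are the known inputs of the family. RefSeq's promoter table (build GRCr8, 250 bases before to 50 from the start on) held 6 of the 10 genes, namely Junb, Egr1, Nr4a1, Dusp1, Zfp36 and Btg2. In the 4 printed, 5′ to 3′ on the gene's strand, capitals mark a CRE (TGACGTCA), its core (TGACG or CGTCA, which the CRE contains) or a CArG box. They are Egr1 (chr18:26736828-26737127, plus strand), Nr4a1 (chr7:134259888-134260187, plus strand), Dusp1 (chr10:17184603-17184902, plus strand) and Btg2 (chr13:48087641-48087940, minus strand).
Egr1 promoter: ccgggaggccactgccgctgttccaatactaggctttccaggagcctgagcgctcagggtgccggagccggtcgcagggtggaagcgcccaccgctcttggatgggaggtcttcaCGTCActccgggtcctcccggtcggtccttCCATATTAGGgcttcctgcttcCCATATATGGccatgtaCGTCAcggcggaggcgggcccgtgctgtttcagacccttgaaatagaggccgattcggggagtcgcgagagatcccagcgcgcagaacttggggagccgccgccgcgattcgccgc
Nr4a1 promoter: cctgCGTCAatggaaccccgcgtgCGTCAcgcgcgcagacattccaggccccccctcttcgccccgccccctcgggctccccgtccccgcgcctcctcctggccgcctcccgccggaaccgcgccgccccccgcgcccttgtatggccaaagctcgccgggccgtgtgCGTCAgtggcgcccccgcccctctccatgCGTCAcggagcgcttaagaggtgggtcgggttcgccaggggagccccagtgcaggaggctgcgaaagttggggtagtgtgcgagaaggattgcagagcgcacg
Dusp1 promoter: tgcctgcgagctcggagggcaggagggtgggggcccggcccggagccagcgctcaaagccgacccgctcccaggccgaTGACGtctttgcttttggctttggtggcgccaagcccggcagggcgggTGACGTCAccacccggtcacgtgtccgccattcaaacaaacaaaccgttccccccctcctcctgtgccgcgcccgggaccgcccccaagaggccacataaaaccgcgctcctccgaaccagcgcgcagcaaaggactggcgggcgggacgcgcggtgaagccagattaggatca
Btg2 promoter: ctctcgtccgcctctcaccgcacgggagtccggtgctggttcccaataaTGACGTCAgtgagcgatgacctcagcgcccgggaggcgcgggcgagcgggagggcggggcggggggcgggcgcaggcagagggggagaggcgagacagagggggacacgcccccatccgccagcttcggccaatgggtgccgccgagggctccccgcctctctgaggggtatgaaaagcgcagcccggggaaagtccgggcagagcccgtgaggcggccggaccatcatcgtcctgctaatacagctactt
Egr1 has 2 CArG boxes, CCATATTAGG and CCATATATGG, and 2 CRE cores. Nr4a1 has 4 CRE cores, and Dusp1 and Btg2 each have 1 complete CRE. Junb has 1 CRE core, and Zfp36 has 1 CArG box, CCATAAAAGG, at -32 to -23 from the start. Searched on both strands of 33469 rat promoters of the same length, the CRE occurred in 1.83%, the core in 21.2%, the CArG box in 1.64% and an AP-1 site (TGANTCA) in 7.33%. The AP-1 letters are in 0 of these 6 windows. A match describes letters and shows no binding.

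Depth was 23701208 to 49319824 counts per library in the first cohort and 18095668 to 25639503 in the OLE cohort. In the OLE libraries a single ID took 35.5% to 52.6% of the counts, against 0.182% to 1.47% in the first cohort. Levels are CPM on TMM-scaled libraries, scaled within a cohort, and are compared neither between cohorts nor between genes. Differences are log2 changes from edgeR's quasi-likelihood fit with 1 standard error (SE), and p-values were adjusted over all IDs tested (threshold 0.05). The labels do not say which libraries came from separate animals, and p-values reflect only the variation among the samples given.

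A library that stood apart for these genes has to be named before the OLE results. Nonglucotonic_OLE 13-33 had the highest level of its group for 10 of 10 genes. Against the other non-glucotonic library of its number, 13-34, all 10 genes were over 2-fold higher in 13-33, with a median of 5.58-fold and a range from 2.79-fold for Junb to 45.7-fold for Nr4a1. Over all 14562 IDs these 2 libraries differed by over 2-fold for 5.27%, and 2.66% were higher in 13-33. Against the glucotonic libraries of number 13, in lanes 4 and 7, none of the 10 genes in 13-33 differed by over 2-fold, with glucotonic to 13-33 medians of 0.981 and 0.824. Only 3.19% and 3.35% of all IDs differed by over 2-fold in these pairs, so that count alone does not set the 10 genes apart. Its levels of these genes go against its label. The label was kept, and whether it is right was not tested. The OLE comparisons below are also given without 13-33, a step added after the data were seen and chosen on the levels of these same genes. In number 19, both sections were low: Glucotonic_OLE 19 was the lowest of its group for 7 genes and Nonglucotonic_OLE 19 for 6. Number 19 also stood apart over the whole table, by the chi-square per degree of freedom between counts of 2 libraries. In the glucotonic group it was 182 to 279 with number 19 and 16.3 to 40.3 between the others. In the non-glucotonic group it was 111 to 141 with number 19 and 21.8 to 61.9 between the others.

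In the OLE cohort most of the early response genes stood higher in the glucotonic libraries and in 13-33 than in sham intestine and the other 4 non-glucotonic libraries, with the smallest margins in glucotonic numbers 18 and 19. All 5 glucotonic libraries lay above those 4 for 9 of the 10 genes, the exception being Dusp1, and 1.36% of all IDs had that order. The order leaves out 13-33, which was set apart by its levels of these genes, so that share is not a like comparison. With 13-33 kept in its summed sample, glucotonic and non-glucotonic samples overlapped for each of the 10 genes. All 5 glucotonic libraries lay above the 3 sham libraries for 8 genes, the exceptions being Dusp1 and Jun, against 5.57% of all IDs. The largest fitted log2 changes against sham were those of Atf3, Nr4a1, Egr1 and Fos.

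**Figure D1:**
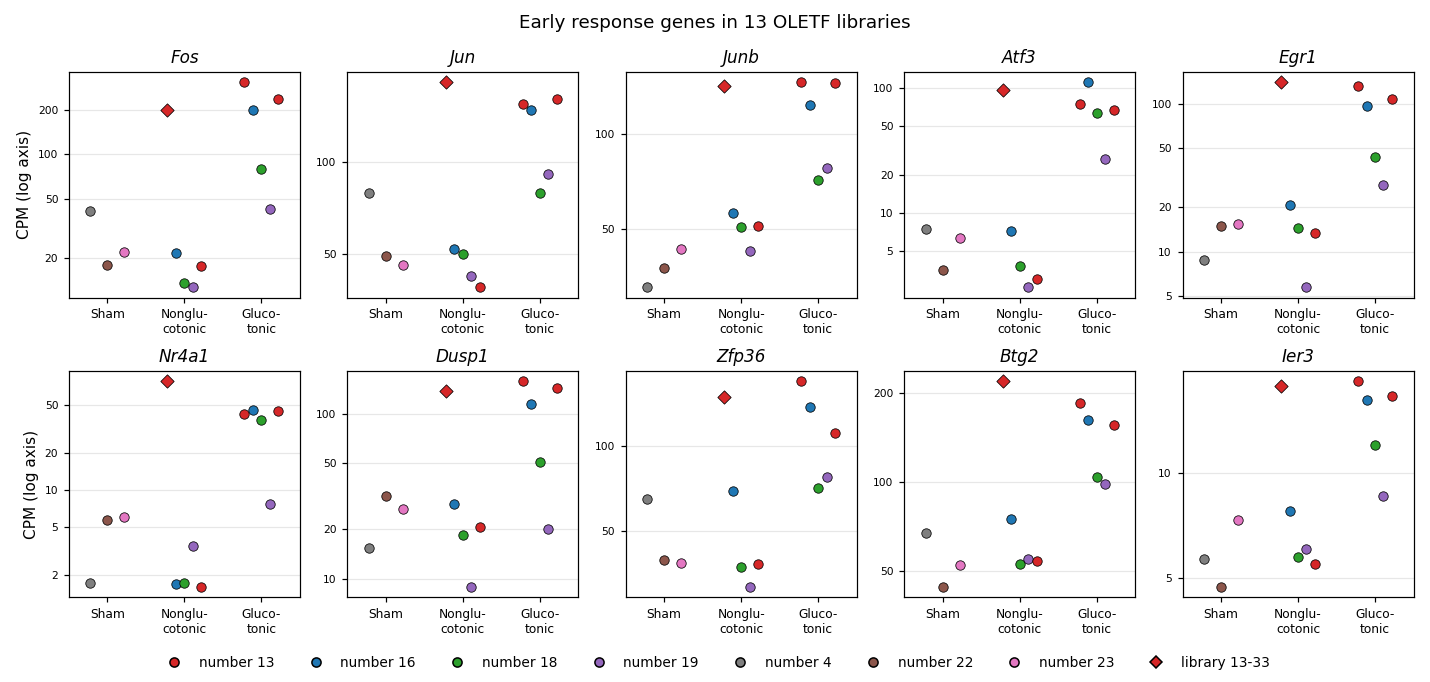
CPM of the 10 early response genes (log axis, 1 panel per gene) in the 13 OLE libraries, each point 1 library, grouped as sham, non-glucotonic and glucotonic and coloured by number. The glucotonic libraries and 13-33 form the upper points, for example 62.4 to 111 CPM of Atf3 in glucotonic libraries of numbers 13, 16 and 18, 95.6 in 13-33 and at most 7.47 in the other non-glucotonic and the sham libraries.

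Fos, the inducible AP-1 subunit, was at 306 and 237 CPM in the glucotonic libraries of number 13, and at 200.1, 79.9 and 42.7 CPM in numbers 16, 18 and 19. In non-glucotonic libraries it was at 199.9 CPM in 13-33 and at 17.9, 21.9, 13.6 and 12.8 CPM in 13-34, 16, 18 and 19. The sham libraries held 41.7, 17.9 and 22.1 CPM. The lowest glucotonic library thus lay just above the highest sham library, and only 13-33 among non-glucotonic libraries reached the glucotonic range. Atf3, the stress-induced member of the ATF family, was at 74.6, 66.1, 111, 62.4 and 27.2 CPM in the glucotonic libraries (number 13 of lanes 4 and 7, then 16, 18, 19). It was at 95.6 CPM in 13-33 and at 2.98, 7.27, 3.79 and 2.56 CPM in 13-34, 16, 18 and 19, with 7.47, 3.50 and 6.31 CPM in sham. Without 13-33 no level of Atf3 outside the glucotonic group reached its lowest glucotonic level.

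Jun, the usual partner of Fos, had a narrower range. It was at 155, 162, 148, 79.1 and 91.7 CPM in the glucotonic libraries in the same order, at 183 CPM in 13-33 and at 39.0 to 52.2 CPM in the other 4. The sham libraries held 79.5, 49.2 and 46.2 CPM, so the highest sham level lay just above the glucotonic level of number 18. Junb, an AP-1 subunit with weaker transactivation than Jun, was at 147, 146, 124, 71.6 and 78.0 CPM in glucotonic libraries, at 143 CPM in 13-33, at 42.6 to 56.3 CPM in the other 4 and at 32.6 to 43.2 CPM in sham. Its sham and glucotonic levels did not overlap.

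Egr1, a zinc finger factor of the growth factor response, was at 131, 108, 96.9, 43.7 and 28.4 CPM in the glucotonic libraries. It was at 139.9 CPM in 13-33, at 13.3, 20.7, 14.4 and 5.73 CPM in 13-34, 16, 18 and 19, and at 8.75, 14.9 and 15.4 CPM in sham. Nr4a1, an orphan nuclear receptor, was at 42.1, 44.9, 45.6, 37.7 and 7.68 CPM in the glucotonic libraries. Its level in number 19 was far below the other 4, and still above all 3 sham libraries (1.73, 5.69 and 6.07 CPM). In non-glucotonic libraries Nr4a1 was at 78.0 CPM in 13-33 and at 1.62 to 3.47 CPM in the rest.

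Among the feedback genes, Dusp1, which dephosphorylates MAP kinases, was at 157, 143, 114, 50.7 and 20.2 CPM in the glucotonic libraries. It was at 137 CPM in 13-33, at 20.5, 28.3, 18.5 and 8.98 CPM in 13-34, 16, 18 and 19, and at 15.4, 31.9 and 26.6 CPM in sham. The glucotonic library of number 19 lay inside the sham range and below 13-34 and Nonglucotonic_OLE 16, so Dusp1 was an exception in both counts above. Zfp36, which binds AU-rich mRNA and speeds its decay, was at 168, 111, 137, 71.3 and 77.4 CPM in glucotonic libraries, at 148 CPM in 13-33, at 32.0 to 69.5 CPM in the other 4 and at 38.9 to 65.1 CPM in sham. Btg2, an antiproliferative cofactor of mRNA deadenylation, was at 98.4 to 185 CPM in glucotonic libraries, 219 CPM in 13-33, 52.7 to 74.8 CPM in the other 4 and 44.2 to 67.1 CPM in sham. Ier3, a regulator of cell survival, was at 8.58 to 18.2 CPM in glucotonic libraries, 17.7 CPM in 13-33, 5.47 to 7.76 CPM in the other 4 and 4.72 to 7.30 CPM in sham.

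For glucotonic against sham intestine, 0 of the 10 genes passed the adjusted threshold in edgeR, with 0.0345% of all IDs called. All 10 log2 changes were positive, as were 47.7% of all IDs, with a median of 1.59 against -0.02 over all IDs tested. All 10 had an unadjusted p under 0.05 in edgeR, as did 16.4% of all IDs. The lowest adjusted p of the 10 was 0.0977, for Junb, at a log2 change of 1.45 ± 0.31 (SE, n = 4 and 3, edgeR). Atf3 had the largest difference, 3.52 ± 0.97, followed by Nr4a1 at 2.88 ± 1.13, Egr1 at 2.44 ± 0.78 and Fos at 2.41 ± 0.85. The other 5 lay between 1.01 ± 0.36 for Jun and 1.73 ± 0.75 for Dusp1. DESeq2 called 4 of the 10 higher (Junb, Atf3, Btg2 and Ier3), beside 3.28% of all IDs. Without both sections of number 19 edgeR called 5 (Junb, Atf3, Egr1, Btg2 and Ier3), while the share of all IDs called went up to 13% (1862 of 14307). Without 13-33, which enters only the shared spread here, edgeR called 2, Junb (adjusted p = 0.0478) and Atf3 (adjusted p = 0.0425), and 0.263% of all IDs. Every glucotonic sample lay above every sham sample for 8 of the 10 genes, and for 6.02% of all IDs.

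For non-glucotonic against sham intestine edgeR called 0 of the 10 genes and 0% of IDs. An unadjusted p under 0.05 was reached there by 0 of the 10 genes and by 6.46% of all IDs, and the DESeq2 count was 0. The 10 log2 changes were all positive with 13-33, as were 46.8% of all IDs, with a median of 0.45 against -0.02. Without it 4 of 10 were positive, as were 47.7% of all IDs, and the median was -0.25 against -0.01. In that fit edgeR called 0 genes and 0% of IDs. Fos, for example, was at 0.42 ± 0.79 with the library and -0.74 ± 0.53 without, and Nr4a1 at 1.27 ± 1.06 and -1.10 ± 0.60. The glucotonic and non-glucotonic comparisons share their sham samples. Read by library, 13-33 was above all sham libraries for 10 genes, Nonglucotonic_OLE 16 for 5, 18 and 13-34 for 1 each, and 19 for 0. Nonglucotonic_OLE 19 was below all sham libraries for 6 genes. The share of all IDs outside the sham range in a single library is not given, so these counts cannot be read as particular to the 10 genes.

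For glucotonic against non-glucotonic sections, edgeR without pairing called 0 of the 10 genes and 0% of IDs. An unadjusted p under 0.05 was reached there by 7 of the 10 and by 2.68% of all IDs, and the DESeq2 count was 0. All 10 log2 changes were positive, as were 50.5% of all IDs, with a median of 1.15 against 0.002, and every adjusted p was 1.00. The 4 numbers shared by both kinds of section were taken as pairs, since deviations of same-numbered samples from their group means correlated above 0.1 in each. Number 18 correlated more with another number (0.446) than with its own (0.347). The blocked fit left out the sham samples. Fitted on the same groups alone without the block, edgeR called 0 of the 10 genes and 0 IDs. With the number as a block, 5 of the 10 were called higher in glucotonic sections, and 0.179% of all IDs were called. These were Zfp36 at 0.94 ± 0.10 (adjusted p = 0.0120), Dusp1 at 1.41 ± 0.15 (adjusted p = 0.0157), Junb at 0.79 ± 0.11 (adjusted p = 0.0209), Btg2 at 0.83 ± 0.11 (adjusted p = 0.0279) and Ier3 at 0.81 ± 0.12 (adjusted p = 0.0378), all from edgeR with 4 pairs. The other 5 did not pass, among them Jun at 0.96 ± 0.15 (adjusted p = 0.0639, edgeR), Fos at 2.21 ± 0.34 (adjusted p = 0.138, edgeR) and Atf3 at 2.91 ± 0.83 (adjusted p = 0.323, edgeR).

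Leaving out 13-33 raised both the changes and the calls. The library was set apart by its high levels of these same genes, so larger changes without it were built in. The values and adjusted p-values without 13-33 are therefore descriptive and no independent test of the sections. Without the block, 1 of the 10 was called, Atf3 at 4.02 ± 0.47 (adjusted p = 0.0110, edgeR), and 0.0484% of all IDs were called. With the block, 9 of the 10 were called higher, all but Nr4a1, beside 2.54% of all IDs. The median log2 change of the 10 genes was then 1.61, against -0.01 over all IDs. Atf3 stood at 3.99 ± 0.16 (adjusted p = 1.47e-05, edgeR), Egr1 at 2.32 ± 0.24 (adjusted p = 0.00816, edgeR) and Fos at 2.87 ± 0.38 (adjusted p = 0.0337, edgeR). Nr4a1 had a change of 3.78 ± 0.73 with an adjusted p of 0.108 in edgeR. The blocked calls also rested on which numbers were kept. Without number 13, 9 genes and 1.60% of all IDs were called, and without number 16, 1 gene and 0.0637% of IDs. Without number 18, 2 genes and 0.106% of IDs were called, and without number 19, 0 genes and 0.0428% of IDs. With the libraries of number 13 apart in the block, 0 genes and 0% of IDs were called.

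**Figure D2:**
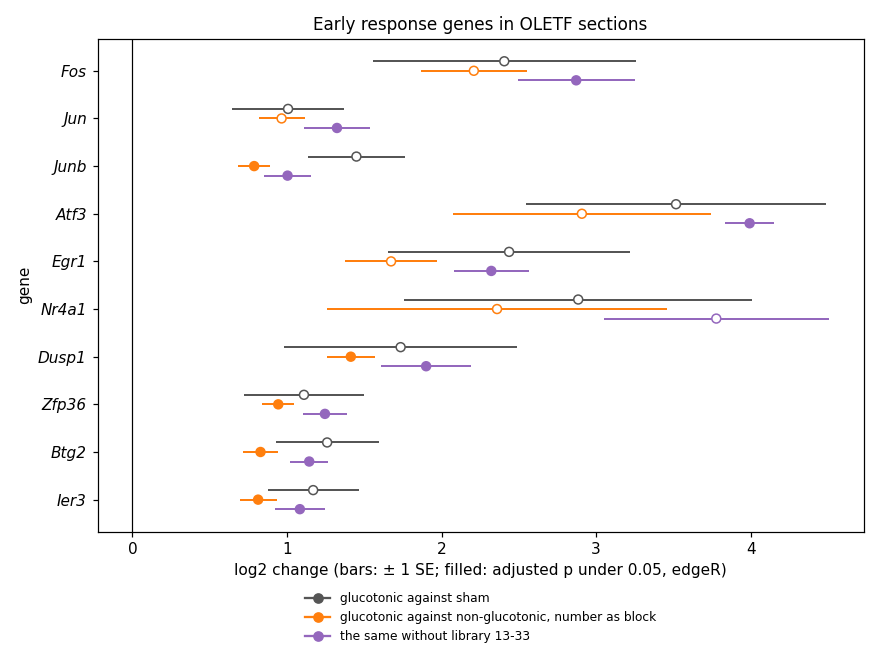
Log2 change (horizontal axis) for each gene of glucotonic sections against sham, and against non-glucotonic sections with the number as a block, with and without library 13-33; points are edgeR estimates, bars 1 SE, and filled points have an adjusted p under 0.05. Every estimate lies above 0; 0 genes are filled against sham, 5 against non-glucotonic sections and 9 without the library.

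Within numbers, all 10 genes were higher in the glucotonic section for 16, 18 and 19, and for number 13 against 13-34. In numbers 16, 18 and 19, 9, 6 and 7 genes were over 2-fold higher, beside 1.84%, 2.58% and 2.68% of all IDs. For the glucotonic libraries of number 13 against 13-34 all 10 were, beside 2.64% (lane 4) and 1.65% (lane 7) of all IDs. The median fold over the 10 genes was 3.38 in number 16, 2.38 in number 18 and 2.21 in number 19, and 5.76 and 5.36 for the glucotonic libraries of number 13 against 13-34. Nr4a1 was 25.6-fold higher in number 16, 20.9-fold in number 18 and 2.18-fold in number 19. Atf3 was 15.1-fold, 16.1-fold and 10.3-fold higher in the same order, and Fos 9.10-fold, 5.83-fold and 3.33-fold. Ier3 had the smallest fold of the 10 in number 19, 1.42. These folds compare single libraries, with no replicate within a number.

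**Figure D3:**
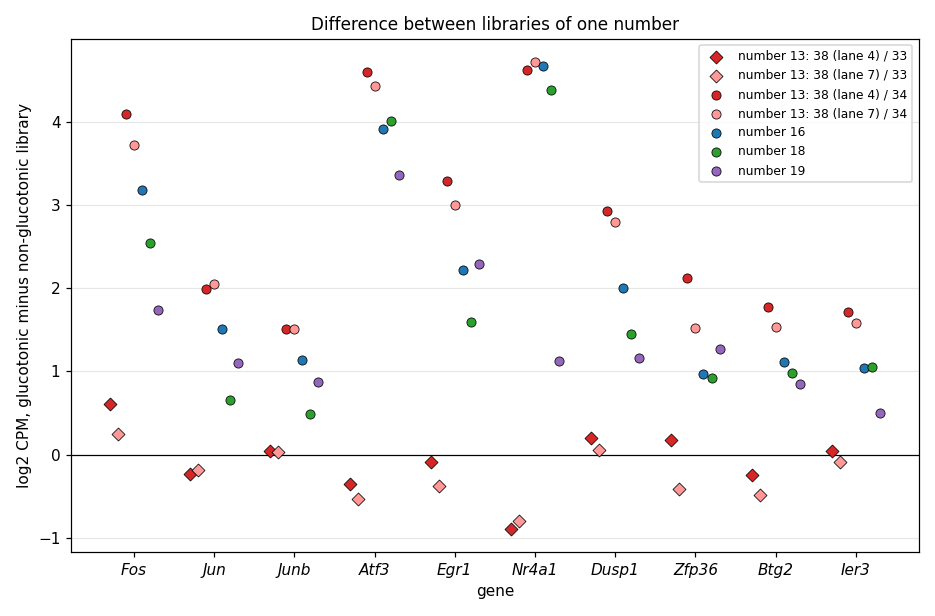
Log2 CPM of the glucotonic minus the non-glucotonic library (vertical axis) for each gene (horizontal axis) in each number, 1 point per pair of libraries; diamonds set number 13 against 13-33, circles against 13-34. Points of numbers 16, 18 and 19 and of 13 against 13-34 are above 0 for all 10 genes, while 13 against 13-33 scatters around 0.

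Sequencing lanes, as named in the labels, differed between the OLE groups: all 3 sham libraries were in lane 7, and the others in lanes 4 to 7. Lane 7 held 1 glucotonic library, of number 13, which was above the 4 other libraries of that lane (13-34 and 3 sham) for 10 of 10 genes. In lane 4 the 3 glucotonic libraries and 13-33 were all above Nonglucotonic_OLE 16 for 10 of 10 genes. The lane 4 order places 13-33 by its levels of these same genes and is descriptive only. The share of all IDs with the orders in this paragraph is not given, so the counts cannot be read as particular to the 10 genes. Nonglucotonic_OLE 16, also of lane 4, was itself above the non-glucotonic libraries of lanes 5 and 7 for 9 of the 10 genes. Glucotonic_OLE 19, of lane 6, was the lowest of its group for 7 genes. By its label 13-33 breaks the order of the groups in lane 4, where it was above all 3 glucotonic libraries for 4 genes (Jun, Egr1, Nr4a1 and Btg2). In a fit of glucotonic against sham with number 13 libraries apart and lane 7 as a covariate, edgeR called 0 of the 10 genes and 0 IDs. Without the covariate that fit called 0 genes and 31 IDs. The median log2 change of the 10 genes was 1.78 in both fits. The part of the lane in these differences was not tested further.

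In the first cohort, the alimentary limb differed from sham jejunum in 4 of the 10 genes, beside 7.66% of all IDs called: Junb, Ier3 and Btg2 were higher and Jun was lower. The median log2 change of the 10 was 0.66 against -0.01 over all IDs, and 9 of 10 were positive, as were 49.2% of all IDs. Every alimentary sample lay above every sham jejunum sample for 4 genes (Junb, Nr4a1, Btg2 and Ier3), an order found for 13.4% of all IDs.

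Junb was at 354, 682 and 477 CPM in alimentary limb 1-1, 2-3 and 15-29, and at 171, 122 and 187 CPM in sham jejunum 8-15, 14-28 and 15-30. The lowest alimentary level was well above the highest sham level, at a log2 change of 1.65 ± 0.25 (adjusted p = 0.00272, edgeR). Ier3 was at 19.2, 45.3 and 38.1 CPM against 11.5, 11.8 and 11.3 CPM in the same order. Its sham jejunum levels were almost equal, and its log2 change was 1.57 ± 0.26 (adjusted p = 0.00414, edgeR). Btg2 was at 322, 262 and 371 CPM against 193, 167 and 178 CPM, a log2 change of 0.83 ± 0.19 (adjusted p = 0.0221, edgeR). The Btg2 call was lost without alimentary limb 15-29 (adjusted p = 0.0987) and without sham jejunum 14-28 (adjusted p = 0.0798).

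Jun moved the other way from its AP-1 relative Junb. It was at 78.0, 109.9 and 57.1 CPM in the alimentary limb and at 207, 166 and 251 CPM in sham jejunum, with no overlap and a log2 change of -1.35 ± 0.26 (adjusted p = 0.00864, edgeR). The calls of Jun, Junb and Ier3 held with each of the 6 libraries left out. Fos was at 93.6, 177 and 195 CPM in the alimentary limb and at 279, 89.9 and 77.2 CPM in sham jejunum, a log2 change of 0.06 ± 0.46 (adjusted p = 0.960, edgeR). Sham jejunum 8-15 held the highest Fos of all 12 libraries. That library was the highest of its group for 6 of the 10 genes, and without it Nr4a1 also passed (adjusted p = 0.0393, edgeR), against 1.41 ± 0.47 (adjusted p = 0.0908) with it. DESeq2 called Nr4a1 with all libraries (adjusted p = 0.0226). Egr1 was at 1.13 ± 0.49 (adjusted p = 0.203, edgeR), Dusp1 at 0.49 ± 0.39, Zfp36 at 0.40 ± 0.35 and Atf3 at 0.33 ± 0.64.

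**Figure D4:**
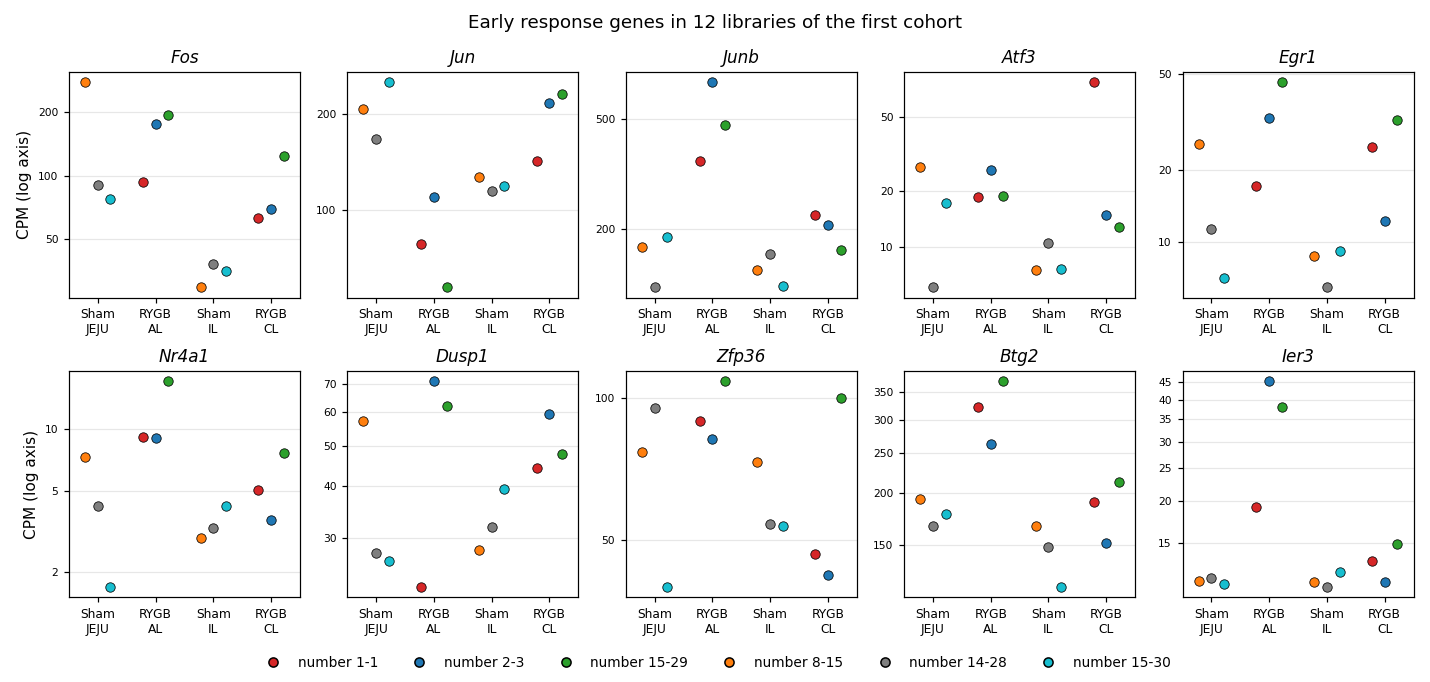
CPM of the 10 early response genes (log axis, 1 panel per gene) in the 12 libraries of the first cohort, each point 1 library, grouped by segment and operation and coloured by number. Junb and Ier3 are highest in the 3 alimentary limb libraries (354 to 682 and 19.2 to 45.3 CPM), where Jun is lowest (57.1 to 109.9 CPM).

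In the common limb against sham ileum, edgeR called 0 of the 10 genes and 0% of IDs. DESeq2 also called 0 of the 10, and 93 of all IDs. All 10 log2 changes were positive, as were 55.4% of all IDs, with a median of 0.62 against 0.05 over all IDs. In edgeR 4 genes had an unadjusted p under 0.05 (Fos, Jun, Atf3 and Egr1), as did 7.85% of all IDs. Every common limb sample lay above every sham ileum sample for 6 of the 10 genes, and for 9.34% of all IDs.

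Fos was at 62.9, 69.2 and 123 CPM in common limb 1-1, 2-3 and 15-29, and at 29.3, 38.1 and 35.0 CPM in sham ileum 8-15, 14-28 and 15-30, a log2 change of 1.32 ± 0.47 (adjusted p = 0.544, edgeR). Atf3 was at 76.5, 14.9 and 12.9 CPM against 7.58, 10.6 and 7.64 CPM in the same order. Its difference was 2.01 ± 0.67 (adjusted p = 0.498, edgeR), and it was 0.69 ± 0.45 without common limb 1-1 (adjusted p = 0.696, edgeR), although the other common limb libraries were also above all ileum libraries. Egr1 was at 24.9, 12.2 and 32.0 CPM against 8.73, 6.46 and 9.18 CPM, a 2.84-fold difference (adjusted p = 0.498, edgeR). Jun was at 142, 217 and 231 CPM against 127, 115 and 119 CPM, a log2 change of 0.71 ± 0.25 (adjusted p = 0.543, edgeR). The levels of these 4 genes did not overlap between the groups. The smallest differences were those of Ier3, at 0.18 ± 0.25, and Zfp36, at 0.06 ± 0.35.

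The test of the difference between the surgery effects, alimentary limb against jejunum minus common limb against ileum, called 1 of the 10 genes, beside 0.607% of all IDs. This was Jun, at -2.06 ± 0.36 (adjusted p = 0.0335, edgeR), lower after surgery in the alimentary comparison and positive in the common limb. The call was lost in 9 of the 12 fits without 1 library, with adjusted p up to 0.0976 and log2 differences from -2.36 to -1.86. The libraries whose removal kept it were alimentary limb 2-3 and common limb 1-1 and 2-3. Ier3 stood at 1.38 ± 0.36 (adjusted p = 0.113, edgeR; adjusted p = 0.0234 by DESeq2) and Junb at 1.17 ± 0.35 (adjusted p = 0.165, edgeR). For the other 7 the adjusted p was from 0.467 to 0.962 in edgeR. In edgeR a difference between the limbs was thus not shown for any of the 10 genes but Jun.

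**Figure D5:**
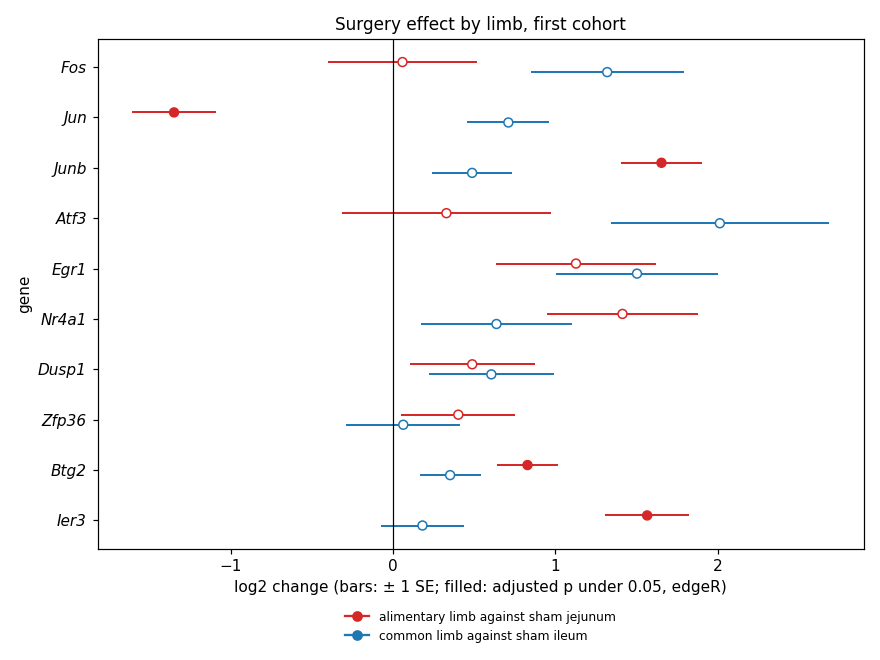
Log2 change after surgery in the alimentary limb (against sham jejunum) and the common limb (against sham ileum) for each gene; points are edgeR estimates, bars 1 SE, and filled points have an adjusted p under 0.05. Jun lies at -1.35 in the alimentary and 0.71 in the common limb, while Junb and Ier3 lie at 1.65 and 1.57 in the alimentary limb and at 0.49 and 0.18 in the common limb. The difference between the limbs was called in edgeR for Jun only.

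Between the sham segments, 1 of the 10 genes was called, beside 9.22% of all IDs: Fos was lower in ileum than in jejunum, at -2.12 ± 0.48 (adjusted p = 0.0241, edgeR). Its value without sham jejunum 8-15 was -1.29 (adjusted p = 0.0605, edgeR), and the call was also lost without each of the 3 ileum libraries (adjusted p from 0.0548 to 0.104). Jun was lower at -0.79 ± 0.25 without passing in edgeR (adjusted p = 0.0690), and passed in DESeq2 (adjusted p = 0.0334). Between the limbs after surgery, 4 of the 10 genes were called, beside 9.32% of all IDs. Jun was higher in the common than in the alimentary limb, at 1.27 ± 0.26 (adjusted p = 0.0143, edgeR). Junb at -1.33 ± 0.25 (adjusted p = 0.0103), Ier3 at -1.38 ± 0.26 (adjusted p = 0.0104) and Btg2 at -0.78 ± 0.19 (adjusted p = 0.0269) were lower there in edgeR. The Btg2 call was lost without alimentary limb 1-1 or 15-29 and without common limb 1-1 or 2-3 (adjusted p from 0.0567 to 0.103). Without alimentary limb 15-29 the Jun call was lost as well (adjusted p = 0.0553), and without common limb 15-29 Zfp36 also passed (adjusted p = 0.0443). Fitted on these limbs alone, 1 of the 10 genes was called, Junb, beside 2.81% of all IDs, and the calls of Jun (adjusted p = 0.0545), Ier3 (adjusted p = 0.0620) and Btg2 (adjusted p = 0.0852) were lost. The limb comparison uses the RYGB libraries of both surgery comparisons, so its calls are not separate from theirs.

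The order of the group means in the first cohort was the same for Junb and Ier3 at the top. Junb had 504 ± 166 CPM (SD, n = 3) in the alimentary limb, then 199.9 ± 29.1 in the common limb, 160.2 ± 33.5 in sham jejunum and 143 ± 19 in sham ileum. Only the alimentary limb was separated from its neighbour in this order, while levels in common limb and jejunum, and in jejunum and ileum, overlapped. Ier3 had 34.2 ± 13.5 CPM in the alimentary limb and 13.2 ± 1.71, 11.6 ± 0.62 and 11.5 ± 0.21 CPM in common limb, ileum and jejunum (SD, n = 3). Jun had 208 ± 42.6 CPM in jejunum, 197 ± 47.9 in the common limb, 120.1 ± 6.21 in ileum and 81.7 ± 26.6 in the alimentary limb (SD, n = 3). Here jejunum and common limb overlapped, and the ileum levels were all above the alimentary levels and all below those of the common limb.

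The median spread of the early response genes within groups was above that of all IDs, most with 13-33 in the non-glucotonic group and least in sham ileum. The median SD of log2 CPM over the 10 genes was 0.67 in glucotonic and 0.98 in non-glucotonic samples, against 0.28 and 0.26 over all IDs. All 10 genes were above the median SD of all IDs in both groups. Without 13-33 the non-glucotonic median of the 10 was 0.43 against 0.27, with 6 genes above the median of all IDs. In OLE sham samples it was 0.44 against 0.28, with 9 genes above. In the first cohort the medians were 0.50 against 0.27 in the alimentary limb and 0.64 against 0.34 in sham jejunum. They were 0.45 against 0.34 in the common limb and 0.25 against 0.23 in sham ileum. The alimentary limb had 8 genes above the median of all IDs, and each other group of that cohort had 6. Over the deviations of 23 samples from their group means, all 45 pairs of genes had a positive Pearson r, with a median of 0.655 and a range of 0.249 to 0.881. Without 13-33, 44 of the 45 were positive, with a median of 0.460 and a range of -0.157 to 0.836. These points share libraries and depth. No r for pairs of other IDs is given here, so these values cannot be read as particular to the 10 genes. In single groups the order of the samples differed between genes: Sham_OLE 4 was the highest of its group for 5 genes and the lowest for 4. By the mean r with the 10 genes, the IDs most like them among 14320 were ENSRNOG00000001189 (mean r = 0.677, range 0.411 to 0.865) and ENSRNOG00000019141 (mean r = 0.671, range 0.402 to 0.889), which no file used here pairs with a symbol. Without 13-33 their mean r was 0.504 and 0.554, and they ranked 12 and 4 among the IDs.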

How the data were processed

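Total RNA was extracted on columns and made into stranded, ribosomal RNA depleted libraries, per the labels' protocols. The submitters' processing notes name FastQC, STAR and build rn6. The counting tool, its strand setting and its rule for ambiguous reads are not given in any source used. The authors deposited raw whole-number counts per Ensembl gene ID for 25 libraries. Reads shared with a near copy of a gene may be split or lost, depending on the counting rule.

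Groups came from sample titles. The cohorts were fitted separately in edgeR 4.0.16 under R 4.3.3, with filterByExpr (at least 10 counts in enough samples, 15 in total), TMM, a robust quasi-likelihood fit to all groups of the cohort, and adjustment by Benjamini-Hochberg over all IDs tested. The blocked OLE fits left out the sham samples. Log2 CPM used a prior count of 2, and SE is the change over the square root of the F statistic. The steps were tested on simulated data. Libraries within a group differed by more than sampling noise (lowest chi-square per degree of freedom 16.3). The genes named were the 10 members, and the 2 IDs most like them. The members and the lists were chosen with earlier results of these data known; lists by symbol could not be applied. The cell line comparison of the design text is not analysed here.

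Alternatives were DESeq2 1.42.0, its size factors, no low-count filter, fits of the compared groups alone, leaving out replicates in turn, number 13 libraries apart, the same with lane 7 as a covariate, without number 19, without the 2 most abundant IDs, and the number as a block; fits without 13-33 and blocked fits without a number were added after seeing the data. The pairing check gave r = 0.473, 0.424, 0.347 and 0.814 for OLE numbers 13, 16, 18 and 19; number 18 correlated more with another number (0.446). The labels do not say that a number is 1 rat, so the pairing rests on this check, in which r was 0.512, 0.471, 0.373 and 0.811 without 13-33.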

Additional observations from a re-analysis of the deposited data

Results flagged for a closer look

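In the 4 non-glucotonic samples of the OLE cohort, the number 13 sample (13-33 and 13-34 summed) was far above the others for 4 genes. Fos was at 98.4 CPM there against 21.7 CPM in the next sample, and Jun at 102 against 51.7 CPM. Atf3 was at 44.1 against 7.21 CPM, and Nr4a1 at 35.5 against 3.40 CPM. Chance alone would mark about 1 in 20 groups of values, and the genes share their samples. The same sample was the highest for the other 6 genes, and library 13-33 held the higher level of the 2 summed libraries for all 10.

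The surgery effect on Jun differed between the limbs, by -2.06 on the log2 scale (alimentary minus common limb; adjusted p = 0.0335, edgeR), in a test of the difference itself that lost its call in 9 of 12 fits without 1 library.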

How the results depend on the processing

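Of 1160 gene values recomputed under alternatives, 37 changed sign, and 0 of these were of a called gene. Those were values such as Fos in the alimentary limb, Zfp36 in the common limb and 6 genes in non-glucotonic against sham without 13-33; all changes of glucotonic sections kept their sign. Counts of genes called among the 10 moved as follows. DESeq2 gave 5 for alimentary limb against jejunum (4 by edgeR), 2 for the difference between limbs, 2 for ileum against jejunum and 4 for glucotonic against sham. Fitting only the groups compared gave 2 for ileum against jejunum and 1, Junb, for the common against the alimentary limb. Leaving out both sections of number 19 gave 5 for glucotonic against sham, and leaving out 13-33 gave 2. For glucotonic against non-glucotonic sections, the replicate block gave 5, the fit without 13-33 gave 1, and the block without 13-33 gave 9. Blocked fits without 1 number gave 0 to 9. Leaving out 1 replicate gave 3 to 5 for alimentary limb against jejunum, 0 to 1 for the difference between limbs, 0 to 1 for ileum against jejunum and 2 to 5 for common against alimentary limb, and 0 throughout for the common limb against ileum and for both OLE comparisons with sham. The replicate block left the first cohort's counts at 1, 1 and 4 (limb difference, ileum, limbs); those numbers were not taken as pairs, with r from -0.0603 to 0.302.

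Counts over all IDs moved more. DESeq2 gave 1968 for alimentary limb against jejunum (edgeR 1237), 93 for common limb against ileum (0), 532 for the limb difference (98), 2520 for ileum against jejunum (1489), 2683 between limbs (1504) and 485 for glucotonic against sham (5). Non-glucotonic against sham gave 26 (0) and glucotonic against non-glucotonic 3 (0). Only the groups compared gave 432 between limbs. Leaving out 1 replicate gave 484 to 1212 IDs for alimentary limb against jejunum and 8 to 127 for the limb difference. The same step gave 235 to 1580 for ileum against jejunum, 396 to 2237 between limbs and 0 to 56 for common limb against ileum. For glucotonic against sham it gave 0 to 103, and for non-glucotonic against sham 0 to 3. With the replicate block ileum against jejunum gave 688 and the limbs 907. For glucotonic against sham the count was 28 without the low-count filter, 31 with number 13 libraries apart, 0 with them apart and lane 7 as a covariate, and 1862 without number 19. Non-glucotonic against sham gave 157 without number 19. The cause of these shifts was not tested. Depth bears on the low levels, such as Nr4a1 at 1.62 CPM in library 13-34.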
